A study of Mus musculus with 45 samples.

Results

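The type I interferon-stimulated antiviral genes described here are 41 mouse genes taken from a list of symbols, with no threshold on their measured values. All 41 were among the 23594 gene rows of the series' expression table, whose values are in TPM, a measure of transcript abundance scaled to transcript length and to the library's total. All 41 also passed the filter used for testing, at least 5 TPM in at least 2 of 27 libraries, as did 8937 of all rows.

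The study measured RNA from small numbers of sorted lung cells of C57BL/6J mice that had received lipopolysaccharide (LPS), the bacterial outer membrane component sensed by Toll-like receptor 4. The cell types are alveolar macrophages (AM), which live in the air spaces, interstitial macrophages (IM), which live in the lung tissue, and inflammatory monocytes (iMo), which enter from blood. Each was collected at 0h, where the labels list no treatment, and at 2h, 6h and 20h after intraperitoneal LPS. AM had 4, 2, 3 and 2 libraries at these times, and IM and iMo had 2 libraries at each, which makes 27 of the 45 libraries and 12 of the 21 groups of the series. All groups share the same strain, no group carries a transgene or a deletion according to the labels, and LPS was the only agent. The remaining 18 libraries, from intranasal LPS, were not used because their row names did not match their values. Across genes, their highest correlation with any library used here was 0.025, against 0.936 to 0.981 within groups, and the macrophage lysozyme gene Lyz2 had a median of 0 TPM in them.

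The labels do not say whether libraries of a group came from separate mice, so p-values here measure the spread between these libraries, which may be technical. Every title ends in a date code, with a letter where several libraries share one. In IM and iMo all 0h libraries carry the code of A171227 and B171227 and all later libraries carry another, so time and date code cannot be told apart there. In AM a single 0h library, LPS00h_160623, shares its code with 1 library at each later time (ip160623), while its other 3 carry A171227, C171227 and D171227. The deposited values of a library summed to between 331473 and 551635 TPM, between 4068 and 7298 genes reached 5 TPM, and the ribosomal RNA gene Rn45s took 4.33% to 33.3% of the sum. Alveolar macrophage markers (12 genes) summed to 6233 to 13665 TPM in AM at 0h and to 524 to 1052 TPM in IM and iMo. In the libraries labelled IM the 13 interstitial macrophage markers summed to 6284 to 7815 TPM at 0h and to 497 to 1340 TPM at 2h, while 11 neutrophil markers summed to 11241 to 22586 TPM at 0h and 19776 to 22431 TPM at 2h. Neutrophil markers thus exceeded interstitial macrophage markers in every library labelled IM, at 0h with Camp at 0 and the other 10 markers present. The part of cell makeup in the results below was not tested, and in bulk libraries fewer cells of a type and less RNA per cell cannot be told apart.

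Type I interferons are secreted proteins that signal through the receptor IFNAR and the kinases JAK1 and TYK2. These activate a transcription factor complex that holds STAT2 and IRF9 and binds the interferon-stimulated response element, a DNA element built from repeated GAAA blocks. The genes so induced include sensors of viral RNA, proteins that block translation or degrade RNA, GTPases and membrane proteins that hold viral particles, and enzymes that attach ISG15 or ubiquitin to proteins. In macrophages LPS induces interferon beta through the adaptor TRIF, so many of these genes are also known as late LPS-response genes, and a low constitutive level before any stimulus, called basal tone, is known in several tissues.

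The promoters of the members with the largest change in IM at 2h are shown because they display the response element itself. RefSeq promoters (GRCm38.p6, 250 bases before to 50 bases after the annotated start) were available for 31 of the 41 members, those not matched being Oas2, Mx1, Mx2, Usp18, Rtp4, Dhx58, Parp9, Parp14, Tor3a and Ifi27l2a. The element core was searched as GAAANNGAAA on both strands. Capitals mark each match, which reads TTTC where it lies on the other strand, and overlapping matches form 1 run of capitals. Rsad2 (chr12:26456403-26456702, minus strand), Ifit1 (chr19:34640639-34640938, plus strand), Isg15 (chr4:156200769-156201068, minus strand) and Ifit3 (chr19:34583279-34583578, plus strand) held the core, and Oasl1 (chr5:114922990-114923289, plus strand), with a like change, did not hold it in this window. Each is written 5′ to 3′ along its gene.
Rsad2: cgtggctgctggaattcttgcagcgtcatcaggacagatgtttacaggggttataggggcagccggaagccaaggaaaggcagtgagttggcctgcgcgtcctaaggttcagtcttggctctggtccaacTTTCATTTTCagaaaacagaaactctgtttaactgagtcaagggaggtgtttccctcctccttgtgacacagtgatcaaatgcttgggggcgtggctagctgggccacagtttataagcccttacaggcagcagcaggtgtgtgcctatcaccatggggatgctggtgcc
Ifit1: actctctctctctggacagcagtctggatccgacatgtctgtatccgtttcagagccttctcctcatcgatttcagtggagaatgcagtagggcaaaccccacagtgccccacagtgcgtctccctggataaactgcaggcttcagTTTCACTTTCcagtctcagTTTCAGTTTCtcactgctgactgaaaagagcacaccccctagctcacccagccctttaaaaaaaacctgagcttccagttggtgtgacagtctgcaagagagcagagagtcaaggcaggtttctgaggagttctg
Isg15: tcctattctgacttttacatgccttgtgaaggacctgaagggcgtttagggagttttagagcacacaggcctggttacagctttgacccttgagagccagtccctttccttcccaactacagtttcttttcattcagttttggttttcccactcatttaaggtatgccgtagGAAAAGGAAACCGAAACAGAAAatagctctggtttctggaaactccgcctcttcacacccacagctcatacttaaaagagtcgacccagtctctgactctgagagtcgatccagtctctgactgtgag
Ifit3: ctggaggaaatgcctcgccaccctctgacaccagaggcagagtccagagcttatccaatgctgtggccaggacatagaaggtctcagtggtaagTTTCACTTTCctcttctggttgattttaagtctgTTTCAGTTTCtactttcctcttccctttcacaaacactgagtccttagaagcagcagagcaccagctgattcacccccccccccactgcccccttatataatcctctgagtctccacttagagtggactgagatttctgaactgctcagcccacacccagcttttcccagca
Oasl1: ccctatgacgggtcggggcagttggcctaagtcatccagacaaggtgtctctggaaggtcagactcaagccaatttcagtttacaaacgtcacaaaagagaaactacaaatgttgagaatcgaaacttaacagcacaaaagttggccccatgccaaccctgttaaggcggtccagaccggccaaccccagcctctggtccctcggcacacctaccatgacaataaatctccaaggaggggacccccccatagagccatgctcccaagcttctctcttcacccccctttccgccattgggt

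Isg15 held 3 overlapping matches between 78 and 57 bases before its start. Ifit1 held matches at 104 to 95 and at 85 to 76 bases before its start, Ifit3 at 156 to 147 and at 122 to 113 bases, and Rsad2 at 120 to 111 bases. In all, 14 of the 31 member promoters (45.2%) held at least 1 match: Ifih1, Ddx58, Ddx60, Ifit1, Ifit3, Eif2ak2, Oas1a, Oas1g, Oas3, Rsad2, Bst2, Isg15, Trim21 and Trim30a. Among all genes with a listed promoter, 1079 of 27025 genes (3.99%) held one, and among genes tested here 309 of 7082 (4.36%). A match is a description of these letters, and its absence says only that they are not in this window.

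**Figure D1:**
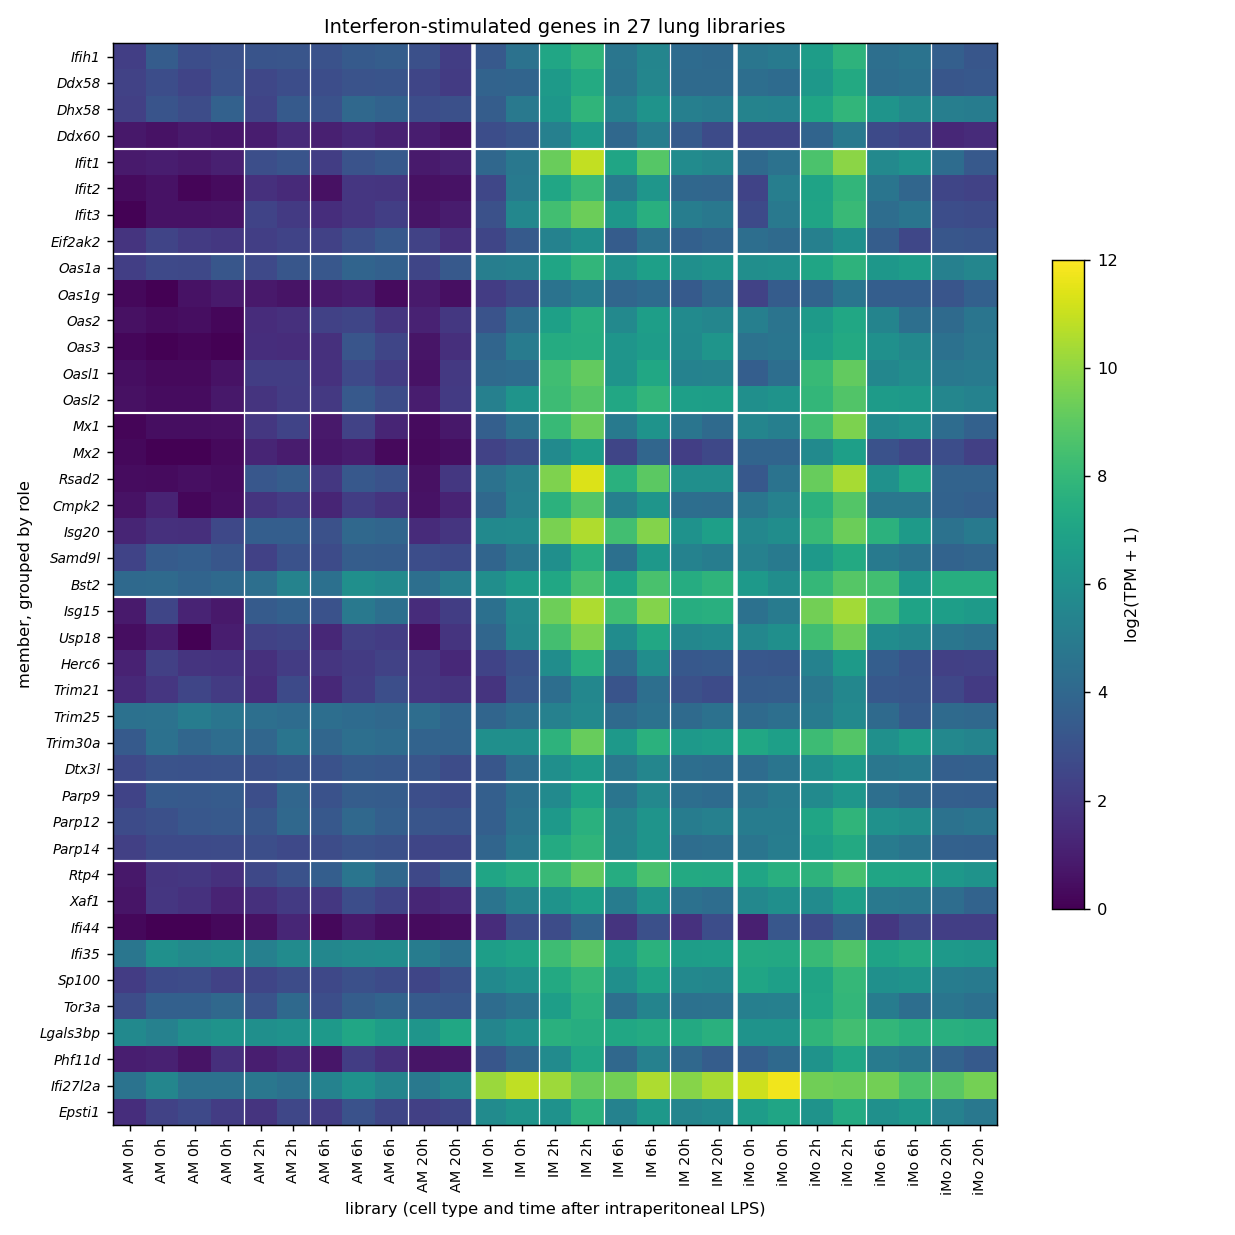
Level of each of the 41 members (rows, grouped by role) as log2(TPM + 1) in each of the 27 libraries (columns, by cell type and time after LPS). Most members are brightest at 2h in IM and iMo, AM libraries stay dark apart from Lgals3bp, Ifi35, Ifi27l2a, Bst2, Trim25 and Trim30a, and Ifi27l2a is bright in IM and iMo already at 0h.

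Before LPS the members stood much higher in IM and iMo than in AM. The sum of the 41 members was 211 to 335 TPM in AM at 0h, 2129 and 3366 TPM in IM, and 3790 and 5169 TPM in iMo, so the cell types did not overlap. By the test described next, 31 of 41 members were higher in IM than in AM and 39 of 41 were higher in iMo than in AM, and none was lower in either. Differences were tested with limma on log2(TPM + 1) over all 8937 genes, and a gene is called at a Benjamini-Hochberg adjusted p under 0.05. Of all tested genes 15% were called higher in IM than in AM and 16.2% higher in iMo than in AM. Ddx60, Ifit2, Ifit3, Oas1g, Oas2, Mx1, Mx2, Cmpk2, Usp18, Herc6, Ifi44 and Phf11d stayed under 5 TPM in every AM library. Oas3, Oasl1 and Xaf1 reached 5 TPM in a single AM library. All of these members passed the filter only through IM and iMo libraries, and they are part of every count here and below that involves AM. Log2 differences are given relative to the median of all tested genes in the same comparison, while calls refer to the differences before that subtraction. The members' median was 2.41 in IM and 2.78 in iMo on this scale. With the libraries coded A171227 to D171227 alone (3 of AM, 2 of IM and 2 of iMo) the medians were 2.53 and 2.73.

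Ifi27l2a, which encodes a small hydrophobic interferon-induced protein, led the basal difference. Its level was 22.6, 44.7, 21.8 and 22.2 TPM in the 4 AM libraries, 1172 and 1862 TPM in IM, and 2175 and 3372 TPM in iMo. No AM library came near the others, and the difference was 5.74 (SE 0.42, adjusted p = 3.98e-10) in IM and 6.48 (SE 0.42, adjusted p = 4.41e-11) in iMo. This 1 gene made up 55.1% to 65.2% of the members' summed level in the IM and iMo libraries at 0h. Rtp4, a chaperone of G protein-coupled receptors, was at 0.716 to 2.86 TPM in AM, 130 and 172 TPM in IM and 133 and 192 TPM in iMo. Its differences were 5.67 (SE 0.41, adjusted p = 3.54e-10) and 5.62 (SE 0.41, adjusted p = 1.8e-10).

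Products of the 2-5A synthetases activate the antiviral ribonuclease RNase L. The 2-5A synthetase family, counted here with the OAS-like genes Oasl1 and Oasl2, was called higher in all 6 members in both comparisons. Its medians were 3.52 in IM and 3.88 in iMo. Oasl2, one of its 2-5A synthetase-like members, ran at 0.319 to 0.723 TPM in AM, 36.5 and 72.0 TPM in IM and 61.5 and 70.1 TPM in iMo. Among antiviral enzymes and GTPases 6 of 7 were called in IM and 7 of 7 in iMo. Rsad2, which encodes viperin, an enzyme that makes a chain-terminating nucleotide, was at 0.271 to 0.396 TPM in AM against 21.9 and 34.6 TPM in IM (4.43, SE 0.51, adjusted p = 3.92e-07). Usp18, the protease that removes ISG15 and restrains the interferon receptor, was at 0 to 0.965 TPM in AM against 46.7 and 62.8 TPM in iMo (5.06, SE 0.48, adjusted p = 6.97e-09). Because AM levels of many members lie under 1 TPM, the added 1 TPM makes these differences smaller than the ratio of levels.

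The RNA sensors, the ISG15 and ubiquitin systems and the ADP-ribosyltransferases differed less. Ifih1 (MDA5), Ddx58 (RIG-I), Dhx58 (LGP2) and the helicase Ddx60 had a median difference of 1.19 in IM, where 3 of 4 were called, and 1.67 in iMo, where 4 of 4 were called. The Ifit genes, which bind viral RNA and block its translation, and Eif2ak2, the kinase PKR that halts translation, gave 3 of 4 in IM and 4 of 4 in iMo. The ISG15 and ubiquitin systems gave 3 of 7 and 6 of 7 (medians 0.97 and 1.39). The ADP-ribosyltransferases Parp9, Parp12 and Parp14 gave 2 of 3 and 3 of 3 (medians 1.02 and 1.82). Not called in IM were Ifih1, Eif2ak2, Samd9l, Herc6, Trim21, Trim25, Dtx3l, Parp9, Tor3a and Lgals3bp, whose differences ran from -0.57 to 1.12.

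Trim25 and Lgals3bp were the members called in neither cell type. Trim25, a ubiquitin ligase that acts on RIG-I, was at 21.0 to 32.3 TPM in AM, 13.8 and 18.9 TPM in IM and 16.8 and 20.0 TPM in iMo. Its IM and iMo libraries all lay below every AM library. Lgals3bp, a secreted galectin-binding glycoprotein, was at 37.3 to 70.4 TPM in AM, 43.7 and 61.7 TPM in IM and 71.6 and 71.7 TPM in iMo. It was the most abundant member in 3 of 4 AM libraries.

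Between iMo and IM at 0h no member was called by limma, beside 7.06% of all tested genes, and 8 members had an unadjusted p under 0.05, beside 16.4%. Here the members' median difference was 0.38 (positive where iMo was higher). With array weights 5 members were called and with the date code in the model 3. The 2 libraries of each cell type differed from each other in these genes. In IM the library coded B171227 was above A171227 in all 41 members, with a median ratio of 1.81, and 13 members differed by more than 2 times. Ifit3 was at 6.86 and 46.4 TPM and Ifit2 at 4.82 and 30.2 TPM. In iMo B171227 was above A171227 in 28 members, and 5 differed by more than 2 times: Ifi44 stood at 1.06 and 8.53 TPM, Ifit2 at 4.35 and 33.6 TPM, and Ifit3 at 5.53 and 27.9 TPM. The share of all tested genes in this order was not computed for either cell type. Whether this order is particular to the members was thus not tested. In IM, A171227 and B171227 summed to 461030 and 454470 TPM over all genes, with 6895 and 6905 genes reaching 5 TPM. In iMo they summed to 506430 and 551640 TPM, with 6606 and 6496 genes reaching 5 TPM. The interferon pathway genes Socs1, a feedback inhibitor of JAK kinases, and Irf1, an interferon-induced transcription factor, were also higher in B171227 in both cell types. Socs1 was at 4.56 and 49.6 TPM in IM and at 4.13 and 48.3 TPM in iMo, and Irf1 was at 51.9 and 233 TPM in IM and at 36.3 and 245 TPM in iMo. Irf9 and Socs3, also of the pathway, were not higher in B171227 in both: Irf9 was at 46.2 and 44.7 TPM in IM and at 78.6 and 55.6 TPM in iMo, and Socs3 at 63.7 and 39.0 TPM in IM and at 14.7 and 16.1 TPM in iMo. The basal levels of Ifit2 and Ifit3 thus differed by 5 times or more between libraries of 1 group, while both libraries of IM and of iMo lay above every AM library for Ifit1, Ifit2 and Ifit3.

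**Figure D2:**
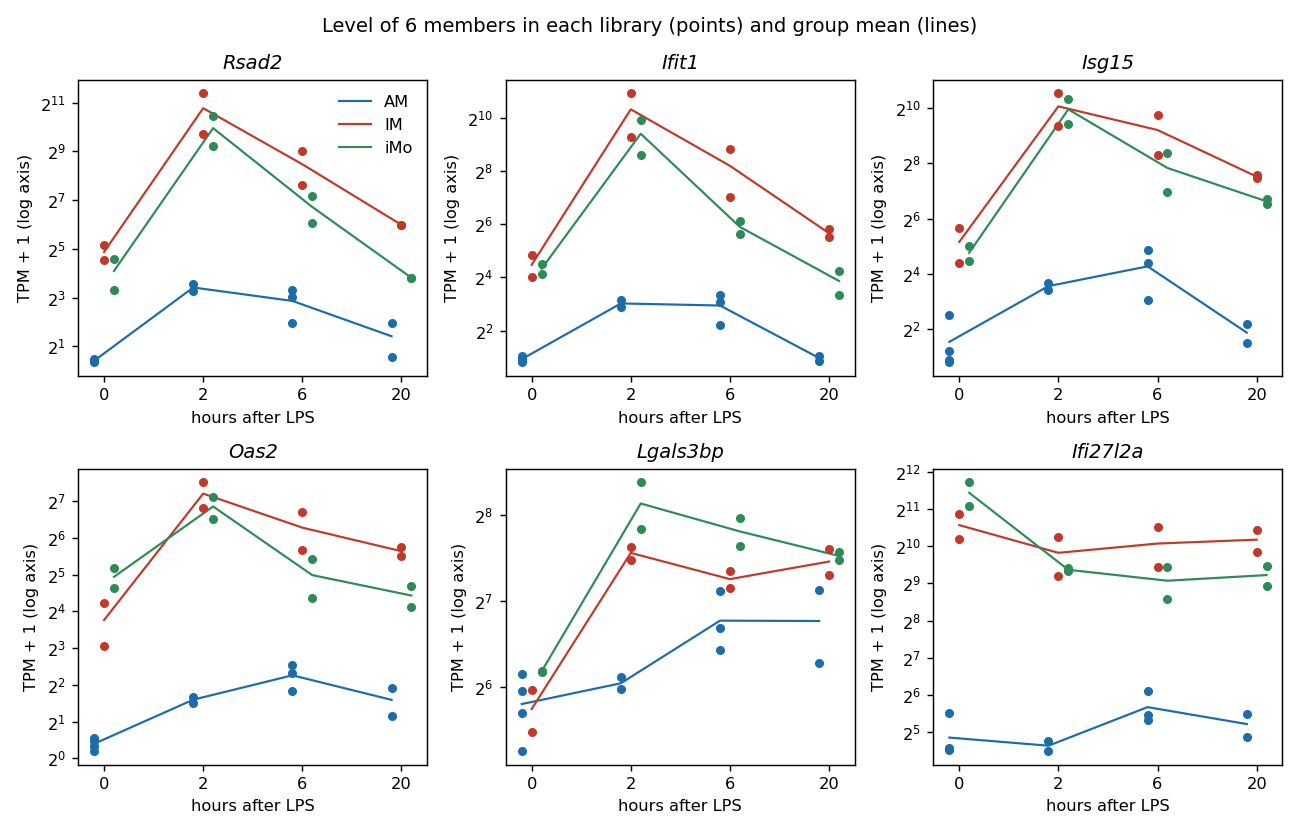
Level of 6 members as TPM + 1 (log axis, scaled per panel) against hours after LPS, with 1 point per library and lines through the group means of AM (blue), IM (red) and iMo (green). Rsad2, Ifit1, Isg15 and Oas2 peak at 2h in IM and iMo, Lgals3bp keeps most of its 2h level at 20h, and Ifi27l2a is below its 0h mean at each later time in IM and iMo.

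At 2h after LPS nearly every member was at its highest level in IM and iMo. The mean was highest at 2h for 40 of 41 members in IM and for 40 of 41 in iMo, Ifi27l2a being the exception in both with its highest mean at 0h. Summed over the members the level was 8990 and 17648 TPM in IM and 7266 and 13408 TPM in iMo. The median ratio of the 2h to the 0h mean was 7.60 in IM and 4.68 in iMo, with largest ratios of 61.8 and 61.7, both for Rsad2.

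In IM 38 of 41 members were called higher at 2h than at 0h and none lower, beside 7.99% of all tested genes called higher. Their median log2 change was 3.65 relative to the median gene, which itself fell by 0.79. Rsad2 went from 21.9 and 34.6 TPM to 832 and 2663 TPM (6.498, SE 0.59, adjusted p = 2.55e-07). Ifit1 went from 15.0 and 27.4 TPM to 617 and 1932 TPM (6.48, SE 0.55, adjusted p = 1.21e-07). Isg15, the ubiquitin-like modifier itself, went from 20.2 and 49.1 TPM to 655 and 1474 TPM (5.71, SE 0.64, adjusted p = 3.07e-06). Mx1, of the dynamin-like GTPase family, went from 11.5 and 22.0 TPM to 269 and 619 TPM (5.39, SE 0.51, adjusted p = 4.8e-07). In each of these genes both 2h libraries lay above both 0h libraries, and the library coded A161219 held the larger 2h value. That library was above the other, coded ip160623, in 39 of 41 members, with a median ratio of 1.97, and Rn45s took 4.33% of its sum against 23.97%. The part of this technical difference was not tested, and the share of all tested genes in this order was not computed.

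By role, all 4 RNA sensors rose in IM (median 3.79), as did the 4 RNA-binding and translation-block genes (5.00), all 6 of the 2-5A synthetase family (3.68), all 7 antiviral enzymes and GTPases (4.43), all 7 genes of the ISG15 and ubiquitin systems (3.31) and all 3 ADP-ribosyltransferases (3.74). Of the 10 other interferon-induced genes 7 rose (2.41). The 3 members not called were Ifi44 (1.91, SE 0.57, adjusted p = 0.109), Epsti1 (1.70, SE 0.50, adjusted p = 0.137) and Ifi27l2a (-0.01, SE 0.48, adjusted p = 0.169). Epsti1 overlapped between the times, with 54.1 and 74.3 TPM at 0h and 68.7 and 207 TPM at 2h. Interstitial macrophage markers fell between these times in the same libraries, as given above, while the neutrophil sum at 2h lay within the 0h range. Within the neutrophil list 3 genes of granules were higher at 2h: Ngp went from 1.32 and 2.03 TPM to 516 and 647 TPM, Camp from 0 in both to 268 and 234 TPM, and Ltf from 1.40 and 0.215 TPM to 88.1 and 38.1 TPM. Endothelial markers (9 genes) went from 579 and 780 TPM to 9.06 and 17.3 TPM, and lung epithelial markers (7 genes) from 348 and 704 TPM to 17.6 and 58.3 TPM. The part of these in the members' changes was not tested.

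In iMo 35 of 41 members were called higher at 2h and 1 lower, beside 8.41% of all tested genes called higher and 24% called lower. The members' median change was 2.57 relative to a median gene that fell by 0.42. Rsad2 went from 8.93 and 23.1 TPM to 589 and 1390 TPM (6.30, SE 0.59, adjusted p = 1.57e-07), and Isg15 from 21.2 and 31.1 TPM to 690 and 1285 TPM (5.57, SE 0.64, adjusted p = 3.09e-06). Ifit1 went from 16.3 and 21.8 TPM to 384 and 966 TPM (5.37, SE 0.55, adjusted p = 6.82e-07). Oasl1, an OAS-like protein known to restrain translation of Irf7, went from 10.9 and 19.1 TPM to 273 and 553 TPM (5.08, SE 0.44, adjusted p = 6.25e-08). The 2 groups did not overlap in any of these genes, and the library coded B161219 was above A161219 in 40 of 41 members at 2h. For all tested genes the share in this order was not computed.

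The member called lower was Ifi27l2a, which went from 2175 and 3372 TPM to 677 and 640 TPM in iMo (-1.61, SE 0.48, adjusted p = 0.00246). In iMo the members not called higher besides Ifi27l2a were Rtp4 (1.23), Xaf1 (0.88), Ifi44 (1.41), Sp100 (1.00) and Epsti1 (0.32). Sp100, a nuclear body protein, was already at 131 and 109 TPM at 0h, and Epsti1 at 97.1 and 134 TPM. With the date code added to the model the count in iMo at 2h went from 35 to 17. In IM that count went from 38 to 37. In that model the shift of the 0h code is set by AM alone, by LPS00h_160623 against the other AM libraries at 0h. Applied to IM and iMo it cannot separate time from date code, here or in the counts against 0h at 6h and 20h.

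Few members were called in AM at 2h on the log2(TPM + 1) scale. Only Rsad2 was called, from 0.271 to 0.396 TPM at 0h to 8.63 and 10.7 TPM at 2h (3.03, SE 0.51, adjusted p = 0.00761), while 0.134% of all tested genes were called higher. Rsad2 lost its call in AM without either 2h library, with array weights and with the date code in the model. At an unadjusted p under 0.05 there were 14 members, beside 3.17% of all tested genes. In 18 members both 2h libraries lay above all 4 libraries at 0h, as they did in 5.43% of all tested genes. Neutrophil markers summed to 112 and 286 TPM in these 2h libraries against 24.8 to 83.2 TPM at 0h, and their part was not tested. Ifit1 went from 0.757 to 1.07 TPM to 6.47 and 7.77 TPM (2.13, SE 0.48, adjusted p = 0.108), with no overlap. Isg15 went from 0.752 to 4.76 TPM to 9.76 and 11.8 TPM (2.23, SE 0.55, adjusted p = 0.227), also with no overlap. The median ratio of the 2h to the 0h mean was 1.23 over the 36 members with no 0h library at 0. These ratios ran from 0.665 to 29.8, and the added 1 TPM shrinks those of members that start under 1 TPM in the test. Between the 2 libraries LPS00h_160623 and ip160623, 38 of 41 members were above 0 relative to the median gene at 2h against 0h, with a median of 0.47. With a pseudocount of 0.1 TPM 11 members were called, and after rescaling without Rn45s and Lars2 12 members were called.

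**Figure D3:**
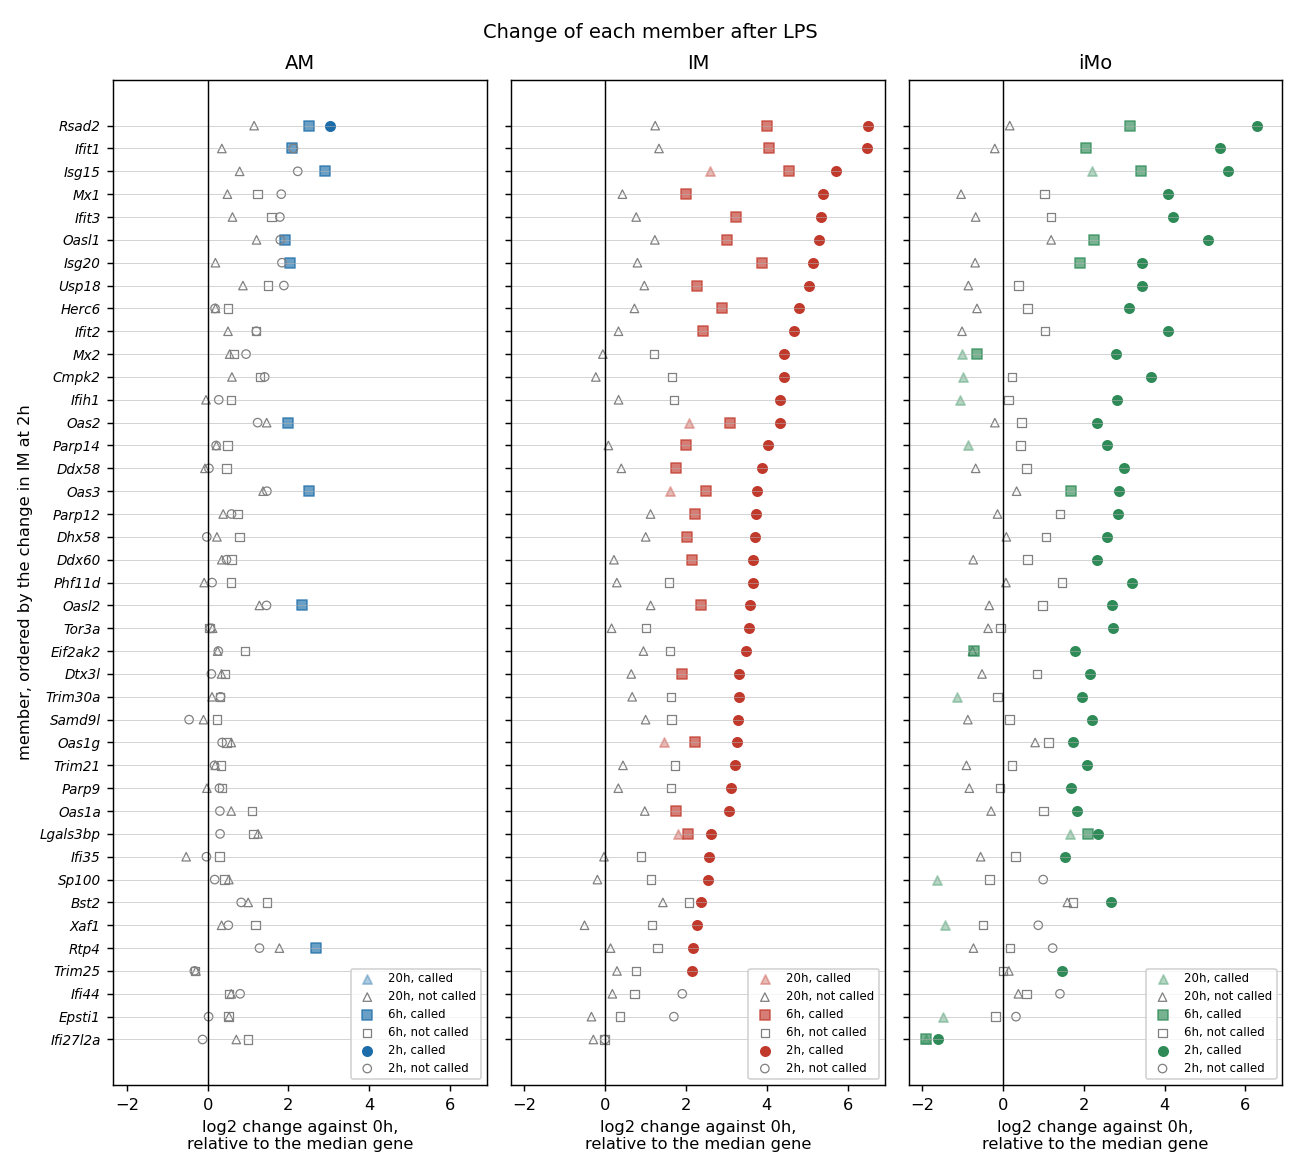
Log2 change of each member against 0h, relative to the median of all tested genes, in AM, IM and iMo (panels), at 2h (circles), 6h (squares) and 20h (triangles), with filled marks for members called. In IM and iMo the 2h circles lie farthest right for nearly all members, in AM 9 members are called at 6h, and in iMo 9 members are called below 0 at 20h.

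At 2h all 41 members were called higher in IM than in AM and all 41 higher in iMo than in AM, beside 12.7% and 13.8% of all tested genes called higher. These counts include members that passed the filter only through IM and iMo libraries, among them Ifit3, Mx1, Usp18 and Oasl1 named below. The median ratio of the means was 38.0 for IM to AM and 27.7 for iMo to AM. The members' median log2 difference was 5.50 and 4.75 relative to the median gene. Within single date codes (1 library against 1) it was 5.05 with ip160623 and 5.89 with A161219 of IM against B161219 of AM. Rsad2 stood at 8.63 and 10.7 TPM in AM against 832 and 2663 TPM in IM (7.90, SE 0.59, adjusted p = 2.88e-09). Ifit3 stood at 4.38 and 3.12 TPM in AM against 324 and 629 TPM in IM (7.35, SE 0.64, adjusted p = 2.28e-08). Mx1 stood at 2.91 and 4.27 TPM in AM against 326 and 798 TPM in iMo (7.11, SE 0.51, adjusted p = 8.86e-10). Ifit1 stood at 6.47 and 7.77 TPM in AM against 617 and 1932 TPM in IM (7.84, SE 0.55, adjusted p = 1.19e-09). Usp18 stood at 4.11 and 4.72 TPM against 338 and 795 TPM (7.35, SE 0.55, adjusted p = 3.02e-09). In iMo, Oasl1 stood at 273 and 553 TPM against 3.49 and 3.52 TPM in AM (6.73, SE 0.44, adjusted p = 3.97e-10). Oasl2 stood at 245 and 423 TPM against 2.48 and 3.32 TPM (6.67, SE 0.44, adjusted p = 3.97e-10). The groups lay far apart in each of these genes. The smallest differences were those of Trim25 (1.91 in IM and 1.29 in iMo) and Lgals3bp (2.27 and 2.35). The mean before LPS in IM exceeded every AM mean, LPS times included, in 39 of 41 members, and the same count held for iMo. The share of all tested genes in this order was not computed.

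Few members were called between IM and iMo at 2h. The median member was lower in iMo by 0.56 relative to the median gene, and 3 of 41 members were above 0 on that scale. With the libraries coded A161219 and B161219 alone (2 of iMo and 1 of IM) the median was -0.68. Only Ddx60 was called, beside 1.57% of all tested genes called lower in iMo. Ddx60, a helicase that aids RIG-I, was at 36.1 and 88.3 TPM in IM and at 13.7 and 28.1 TPM in iMo (-1.88, SE 0.40, adjusted p = 0.0472). It lost its call with a pseudocount of 0.1 TPM, with no filter, with array weights and without any 1 of 20 single libraries, most of them of other groups, by which its adjusted p passed 0.05. A second member had an unadjusted p under 0.05.

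Whether the course over 2h, 6h and 20h differed between cell types was tested with a limma F test over the 3 differences of response. It called 26 of 41 members for IM against AM, where 26.5% of all tested genes were called, and 29 of 41 for iMo against AM, where 17.3% were called. The values are log2(TPM + 1), and the added 1 TPM shrinks the AM response of members that start under 1 TPM. With a pseudocount of 0.1 TPM fewer members were called for IM against AM, while the iMo count stayed within 1.5 times. The genes with the smallest adjusted p for IM against AM were Parp14 (0.000351) and Ddx58 (0.000738), and for iMo against AM they were Ddx58 (0.00057) and Parp14 (0.00122). Ddx58 went from 12.975 and 13.7 TPM to 91.1 and 161 TPM in IM, from 18.9 and 17.3 TPM to 82.3 and 156 TPM in iMo, and from 4.23 to 7.12 TPM to 4.84 and 6.08 TPM in AM, where the 2 times overlapped. Parp14, an ADP-ribosyltransferase, went from 13.9 and 26.99 TPM to 159 and 233 TPM in IM, from 24.2 and 33.3 TPM to 109 and 154 TPM in iMo, and from 3.81 to 5.63 TPM to 6.44 and 5.29 TPM in AM. Not called for IM against AM were Oas3, Ifit3, Usp18, Ifi35, Parp9, Isg15, Trim21, Ifit2, Lgals3bp, Oasl2, Xaf1, Epsti1, Ifi27l2a, Bst2 and Ifi44. The IM count went to 9 without the IM 2h library coded A161219, to 13 without the AM 2h library coded ip160623 and to 15 without the IM 0h library coded A171227. The iMo count went to 14 without the iMo 2h library coded B161219.

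For iMo against IM the same test called 1 member, beside 3.75% of all tested genes. This was Oas2, one of the synthetases (adjusted p = 0.0371). It went from 7.33 and 17.8 TPM at 0h to 112 and 182 TPM at 2h, 49.9 and 104 TPM at 6h and 53.3 and 44.3 TPM at 20h in IM. In iMo it went from 35.6 and 23.8 TPM to 91.0 and 139 TPM, then 41.7 and 19.7 TPM and last 16.5 and 24.7 TPM. Relative to the median gene its response was lower in iMo than in IM by 1.90, 2.54 and 2.25 at the 3 times. The call was lost without either iMo 0h library, without either IM 20h library, and without the libraries coded IM 0h A171227, IM 6h A161219, iMo 6h B161219, iMo 20h A161219 and AM 0h C171227, each left out alone.

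At 6h IM still held much of the 2h level. A total of 22 of 41 members were called above 0h, beside 4.63% of all tested genes, and the members' median was 1.90. Isg15 was at 316 and 860 TPM (4.54, SE 0.64, adjusted p = 7.06e-05). Ifit1 was at 130 and 453 TPM (4.05, SE 0.55, adjusted p = 5.54e-05). Rsad2 was at 198 and 509 TPM (4.01, SE 0.59, adjusted p = 0.000148). Isg20, an RNA exonuclease, was at 328 and 887 TPM against 50.5 and 53.1 TPM at 0h (3.89, SE 0.54, adjusted p = 6.98e-05). Every one of these 6h libraries lay above both 0h libraries. The library coded A161219 was above ip160623 in all 41 members at 6h, with a median ratio of 2.11, and Rn45s took 6.05% of its sum against 33.3%. For all tested genes the share in this order was not computed. The count of 22 went to 7 without the IM 0h library coded A171227, to 9 without the IM 6h library coded A161219, to 7 with the date code in the model and to 37 after quantile normalization. Neutrophil markers in the 6h libraries labelled IM summed to 17308 and 56978 TPM, and their part in these levels was not tested.

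In iMo fewer members stood above 0h at 6h. There 7 of 41 were called above 0h, beside 5.95% of all tested genes, and 3 below 0h, beside 23.1%. Isg15 was the most raised, at 328 and 125 TPM (3.41, SE 0.64, adjusted p = 0.00163). Rsad2 was at 65.9 and 142 TPM (3.14, SE 0.59, adjusted p = 0.00194) and Oasl1 at 46.6 and 57.9 TPM (2.26, SE 0.44, adjusted p = 0.00455). Lgals3bp was at 247 and 198 TPM (2.10, SE 0.37, adjusted p = 0.0026), and the other called members were Ifit1, Isg20 and Oas3. Lower was Ifi27l2a, at 689 and 384 TPM (-1.91, SE 0.48, adjusted p = 0.00081). Eif2ak2 was lower as well, at 10.6 and 4.93 TPM against 18.9 and 17.0 TPM at 0h (-0.71, SE 0.43, adjusted p = 0.0381). Mx2, the second Mx GTPase, was at 7.01 and 4.79 TPM against 13.7 and 13.7 TPM (-0.63, SE 0.42, adjusted p = 0.0479). The median gene fell by 0.48 here, and before its subtraction, to which the calls refer, Eif2ak2 and Mx2 changed by -1.19 and -1.11. In each of these 7 members with values both 6h libraries lay on 1 side of both 0h libraries. The split of 7 higher and 3 lower was 18 and 0 after quantile normalization and 17 and 1 after rescaling without Rn45s and Lars2. Without the iMo 0h library coded A171227 it was 2 and 1, without B171227 it was 4 and 1, and without the iMo 6h library coded A161219 it was 4 and 2. With the date code in the model no member was called. Between 0h and 6h in iMo, neutrophil markers went from 135 and 217 TPM to 1755 and 3063 TPM, interstitial macrophage markers from 1343 and 1405 TPM to 305 and 359 TPM, and classical monocyte markers from 8454 and 12921 TPM to 4111 and 5194 TPM. Their part was not tested.

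Between 2h and 6h the decline itself was called for 16 members in IM, beside 2.77% of all tested genes called lower, and for 29 members in iMo, beside 4.82%. In IM these were Ifih1, Ddx58, Ifit1, Eif2ak2, Oasl1, Mx1, Mx2, Rsad2, Cmpk2, Usp18, Herc6, Trim25, Parp14, Ifi35, Tor3a and Phf11d. Mx1 went from 269 and 619 TPM to 29.4 and 71.4 TPM in IM (-3.33, SE 0.51, adjusted p = 0.000632). Cmpk2, a nucleotide kinase whose gene lies beside Rsad2, went from 208 and 448 TPM to 36.7 and 76.6 TPM in IM (-2.70, SE 0.47, adjusted p = 0.00189) and from 209 and 437 TPM to 25.7 and 26.3 TPM in iMo (-3.41, SE 0.47, adjusted p = 6.74e-05). Mx2 went from 52.3 and 100 TPM to 4.65 and 14.6 TPM in IM (-3.17, SE 0.42, adjusted p = 0.00023) and from 52.6 and 107 TPM to 7.01 and 4.79 TPM in iMo (-3.40, SE 0.42, adjusted p = 2.05e-05). Usp18 went from 338 and 795 TPM to 55.5 and 146 TPM in IM (-2.71, SE 0.55, adjusted p = 0.00599). The 2h and 6h libraries did not overlap in these genes. In iMo Ifit1 reached 49.0 and 68.2 TPM (-3.29, SE 0.55, adjusted p = 0.000432) and Rsad2 65.9 and 142 TPM (-3.13, SE 0.59, adjusted p = 0.00122). The median share of the 2h mean left at 6h was 39.8% in IM and 26.7% in iMo. In IM, Isg20 (53.5%), Isg15 (55.2%), Rtp4 (66.0%), Lgals3bp (80.9%) and Bst2 (98.1%) kept more than that, while Mx1 kept 11.4%. Within 1 date code the IM decline had a median of -1.53 with ip160623 and -1.44 with A161219. The IM count went to 3 without the 6h library coded ip160623, to 6 without the 2h library coded A161219, to 8 with array weights, to 10 with no filter on low values and to 26 with the date code in the model, and the iMo count to 11 without the 2h library coded B161219 and to 15 without the 6h library coded B161219.

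AM had its highest mean at 6h in 26 of 41 members and at 2h in 14, with Trim25 highest at 0h. For all tested genes the time of the highest mean was not counted. The 2 date codes differed in this order. With ip160623 (1 library against 1), 21 members were above 0 and 20 below relative to the median gene at 6h against 2h (median 0.006). With the libraries coded A161219 and B161219, 36 were above and 5 below (median 0.60). Called above 0h at 6h were 9 members, beside 0.929% of all tested genes: Ifit1, Oas2, Oas3, Oasl1, Oasl2, Rsad2, Isg20, Isg15 and Rtp4. Isg15 went from 0.752 to 4.76 TPM to 7.26, 27.9 and 19.9 TPM (2.89, SE 0.49, adjusted p = 0.00252). Rtp4 went from 0.716 to 2.86 TPM to 11.1, 23.974 and 15.3 TPM (2.69, SE 0.36, adjusted p = 0.000234), and Isg20 from 1.35 to 5.17 TPM to 6.92, 15.6 and 14.2 TPM (2.03, SE 0.41, adjusted p = 0.016). All 3 libraries at 6h lay above all 4 at 0h in these genes. The 2-5A synthetase family gave 4 of its 6 members, Oas3 going from 0 to 0.159 TPM to 2.20, 7.95 and 4.66 TPM. The count went to 5 without the AM 6h library coded A161219, to 1 with the date code in the model, to 20 with array weights and to 18 after rescaling without Rn45s and Lars2. In the same libraries neutrophil markers summed to 378 to 443 TPM against 24.8 to 83.2 TPM at 0h, with Ly6g under 1 TPM, and classical monocyte markers to 82.4 to 274 TPM against 58.0 to 92.8 TPM, and their part in these changes was not tested. Between 2h and 6h no member and no gene was called in AM by limma, with 3 members and 110 genes at an unadjusted p under 0.05.

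By 20h the 2h level was largely gone in IM and iMo. Lower at 20h than at 2h were 37 of 41 members in IM, beside 7.17% of all tested genes called lower, and 36 of 41 in iMo, beside 10.3%. The members' median fell by 2.71 in IM and by 3.06 in iMo relative to the median gene. The median share of the 2h mean left at 20h was 21.6% in IM and 12.1% in iMo. With the libraries coded A161219 and B161219 alone the medians were -3.05 in IM and -3.06 in iMo.

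**Figure D4:**
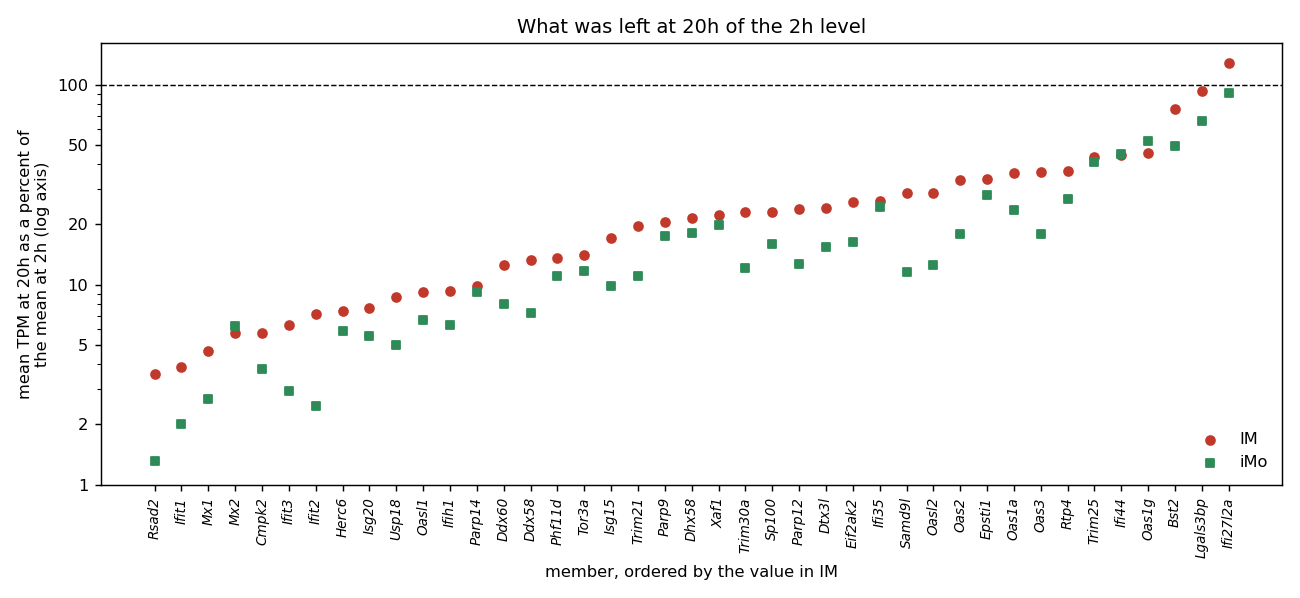
Mean TPM at 20h as a percent of the mean at 2h (log axis) for each member in IM (red circles) and iMo (green squares), ordered by the value in IM. Rsad2 is lowest, at 3.56% in IM and 1.32% in iMo, and Bst2, Lgals3bp and Ifi27l2a are at the upper end.

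The largest falls were those of Rsad2, Ifit1, Mx1 and Cmpk2 in IM and of Rsad2, Ifit1, Mx1 and Ifit2 in iMo. Rsad2 fell from 832 and 2663 TPM at 2h to 61.9 and 62.5 TPM at 20h in IM (-5.21, SE 0.59, adjusted p = 9.28e-06) and from 589 and 1390 TPM to 13.002 and 13.062 TPM in iMo (-6.15, SE 0.59, adjusted p = 3.47e-07). Ifit1 fell to 54.9 and 44.3 TPM in IM (-5.09, SE 0.55, adjusted p = 6.8e-06) and to 18.0 and 9.23 TPM in iMo (-5.59, SE 0.55, adjusted p = 3.73e-07). Mx1 fell to 24.5 and 16.8 TPM in IM (-4.91, SE 0.51, adjusted p = 4.37e-06) and to 17.7 and 12.4 TPM in iMo (-5.16, SE 0.51, adjusted p = 3.73e-07). Cmpk2 fell to 19.2 and 18.6 TPM in IM (-4.60, SE 0.47, adjusted p = 4.37e-06). Ifit2 fell to 4.73 and 4.17 TPM in iMo, 2.47% of its 2h mean (-5.12, SE 0.70, adjusted p = 1.54e-05). In each of these genes the 2h and 20h libraries did not overlap. By role the median fall in IM was largest for the antiviral enzymes and GTPases (-4.44, 6 of 7 called) and the RNA-binding and translation-block genes (-4.40, 4 of 4) and smallest for the 2-5A synthetase family (-2.15, 6 of 6). In iMo these medians were -4.15 (6 of 7), -5.02 (4 of 4) and -2.56 (5 of 6).

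Not called lower at 20h than at 2h in either IM or iMo were Bst2, Ifi44, Lgals3bp and Ifi27l2a, and in iMo also Oas1g. Bst2, the membrane protein tetherin that holds budding virions, was at 141 and 380 TPM at 2h and 171 and 222 TPM at 20h in IM, and at 257 and 451 TPM and 174 and 175 TPM in iMo. Lgals3bp was at 197 and 177 TPM at 2h and 157 and 192 TPM at 20h in IM. Its 20h libraries in IM and iMo lay above all 0h libraries of the same cell type.

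Levels at 20h were also set against 0h in each cell type. In IM 5 members were called above 0h at 20h, beside 4.05% of all tested genes, and none below. Isg15 was at 177 and 188 TPM against 20.2 and 49.1 TPM (2.58, SE 0.64, adjusted p = 0.00954). Oas2 was at 53.3 and 44.3 TPM against 7.33 and 17.8 TPM (2.08, SE 0.44, adjusted p = 0.00305). Lgals3bp was at 157 and 192 TPM against 43.7 and 61.7 TPM (1.81, SE 0.37, adjusted p = 0.00239). With Oas2, 2 more members of the 2-5A synthetase family were called, Oas3, at 50.0 and 75.7 TPM against 14.2 and 31.1 TPM (1.59, SE 0.42, adjusted p = 0.018), and Oas1g (1.46, SE 0.40, adjusted p = 0.0238). In 19 of 41 members both 20h libraries lay above both 0h libraries, beside 27.7% of all tested genes. In 3 members, Xaf1, Sp100 and Epsti1, both lay below, beside 36.3%. The count of 5 went to 0 without the IM 0h library coded A171227 and with the date code in the model, to 2 without the IM 20h library coded B161219, to 14 after quantile normalization and to 15 after rescaling without Rn45s and Lars2. Neutrophil markers summed to 28310 and 34994 TPM in these 20h libraries against 11241 and 22586 TPM at 0h, and their part was not tested.

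In iMo 2 members were called above 0h at 20h, beside 7.39% of all tested genes, and 9 below, beside 14.8%. Isg15 was above, at 104 and 91.3 TPM against 21.2 and 31.1 TPM (2.19, SE 0.64, adjusted p = 0.0374). Lgals3bp was above too, at 188 and 177 TPM against 71.6 and 71.7 TPM (1.65, SE 0.37, adjusted p = 0.0133). Of the 9 below, Ifi27l2a was at 483 and 710 TPM (-1.90, SE 0.48, adjusted p = 0.00237). Sp100 was at 31.6 and 28.6 TPM against 131 and 109 TPM (-1.64, SE 0.37, adjusted p = 0.00078). Epsti1, whose product is known from epithelial and stromal interaction, was at 38.2 and 26.982 TPM against 97.1 and 134 TPM (-1.49, SE 0.50, adjusted p = 0.013). Xaf1, an antagonist of the apoptosis inhibitor XIAP, was at 18.3 and 13.3 TPM against 48.3 and 61.7 TPM (-1.44, SE 0.44, adjusted p = 0.00708). The others were Trim30a, Ifih1, Mx2, Cmpk2 and Parp14. In 28 of 41 members both 20h libraries lay below both 0h libraries, as they did in 48.5% of all tested genes. The lower calls rested on scaling and on single libraries. After rescaling without Rn45s and Lars2 the split was 4 higher and 2 lower, after quantile normalization 4 and 10, with array weights 4 and 22, and with the date code in the model 0 and 1. Without the iMo 0h library coded B171227 it was 0 and 2, without A171227 0 and 6, without the iMo 20h library coded A161219 0 and 5, and without the 20h library coded B161219 0 and 2. Rescaling moved the median gene of this comparison from -0.31 to 0.38. In the same libraries classical monocyte markers went from 8454 and 12921 TPM at 0h to 2231 and 3015 TPM at 20h and neutrophil markers from 135 and 217 TPM to 2906 and 2932 TPM, and their part was not tested.

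In AM no member was called at 20h against 0h by limma, with 7 at an unadjusted p under 0.05, beside 0.0448% of all tested genes called higher and 9.01% at that unadjusted p. None was called lower at 20h than at 2h either, with 8 at an unadjusted p under 0.05, beside 0.0224% of all tested genes called lower and 3.68% at that unadjusted p. The median share of the 2h mean left at 20h was 70.5%. Rtp4 was at 5.13 and 9.84 TPM at 20h against 0.716 to 2.86 TPM at 0h (1.78, SE 0.41, adjusted p = 0.24), with no overlap, and Lgals3bp was at 76.7 and 139 TPM against 37.3 to 70.4 TPM (1.25, SE 0.32, adjusted p = 0.423). Ifit1 was back at 0.829 and 1.09 TPM. The AM 20h library coded A161219 summed to 3927 TPM over interstitial macrophage markers against 205 TPM in the other, and it was above the other in 26 of 41 members. For all tested genes the share in this order was not computed.

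Genes of the interferon pathway outside the list were read from a set of 27 symbols, of which 22 passed the filter. The ligands did not pass: Ifnb1, the interferon beta gene, reached 3.93 TPM in 1 IM library at 6h and was at most 0.991 TPM elsewhere, and Ifna1, Ifna2, Ifna4 and Ifna5 stayed at or below 2.58 TPM. The receptor genes Ifnar1 and Ifnar2 were called higher than in AM at 0h in IM (1.02 and 1.71) and in iMo (1.09 and 2.04). In all, 14 of 22 were higher and 1 lower in IM than in AM at 0h, and 15 higher and 1 lower in iMo. Of all 8937 tested genes 1344 were called higher and 982 lower in IM, and 1448 higher and 1201 lower in iMo. The 1 lower was Mavs, the adaptor of the RNA sensors, at 21.0 to 38.7 TPM in AM, 9.85 and 11.0 TPM in IM and 11.9 and 5.86 TPM in iMo. Irf7, the factor that amplifies interferon production, had the largest difference in both. It was at 1.08 to 3.37 TPM in AM, 124 and 277 TPM in IM (5.86, SE 0.58) and 190 and 297 TPM in iMo (6.08, SE 0.58).

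After LPS at 2h 7 of 22 pathway genes were called higher and 4 lower in IM, beside 7.99% and 40.8% of all tested genes. In iMo 6 were higher and 3 lower, beside 8.41% and 24%. Ikbke, a kinase that activates IRF3 and IRF7, went from 5.02 and 8.30 TPM to 205 and 427 TPM in IM (6.10, SE 0.56) and from 11.2 and 15.0 TPM to 200 and 360 TPM in iMo (4.69, SE 0.56). In IM it was at 194 and 159 TPM at 20h, below both 2h libraries and above both 0h libraries. Stat2, a subunit of the factor that binds the response element, went from 15.0 and 32.5 TPM to 131 and 156 TPM in IM at 2h and back to 21.1 and 19.6 TPM at 20h. Irf7 reached 959 and 2243 TPM in IM and 914 and 1709 TPM in iMo at 2h. In iMo at 20h 2 of 22 pathway genes were called above 0h and 7 below, beside 7.39% and 14.8% of all tested genes. Among those below were Stat2, Ifnar2, Irf2, Irf8, Jak1 and Tmem173, the gene of STING. In AM 1 pathway gene was called at 2h, Socs3, and 2 at 6h, Socs3 and Irf7, the latter at 15.5, 75.1 and 31.8 TPM (3.60, SE 0.51). These were higher calls, beside 0.134% of all tested genes called higher at 2h and 0.929% at 6h.

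Several members belong to families of near-identical or overlapping genes, so their counts could be shared. Oas1a and Oas1g are such copies of each other, Ifit3 has the copy Ifit3b, and Trim30a has several. Dtx3l and Parp9 overlap on chromosome 16 (35926515 to 35939027 and 35938470 to 35972621, GRCm38.p6), and no source used here states whether strand was used in counting. Dtx3l and Parp9 stood at 5.35 and 4.32 TPM in the AM library LPS00h_160623 and at 93.4 and 124 TPM in the IM 2h library coded A161219.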

How the data were processed

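RNA of sorted AM, IM and iMo was sequenced by the authors with a modified Smart-seq2 protocol on polyadenylated RNA, per the labels. The deposited values are TPM per gene. Per the submitters' processing notes the authors used STAR and HOMER on the mm10 build, with versions not given in the sources used here. Groups and times come from the labels, which give 20h where the series text gives another last time. Values were taken as log2(TPM + 1), genes reaching 5 TPM in 2 or more of the 27 libraries were kept, and 1 linear model over 12 groups was fitted with limma 3.58.1 in R 4.3.3 (mean-variance trend, Benjamini-Hochberg adjustment over all 8937 genes, called under 0.05). Tables were made with Python 3.11.15 and pandas 2.3.3. The model was tested on simulated data. TPM keeps no depth, and a highly abundant transcript such as Rn45s lowers all other values of its library. The date codes were not taken to pair libraries, and the check of this is in the closing section.

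The members and the lists of markers and pathway genes were chosen with earlier results of these data known. Values of 1 pathway gene are not reported here. Per-library values are given for the members with the largest change among those called in a comparison (up to 4 in each direction, at least 10 TPM mean in the higher group), for members that go against the rest, and for others named after their values were seen. Alternatives were another pseudocount, no filter, quantile normalization, rescaling without Rn45s and Lars2, array weights, the date code as a covariate, a replicate block and leaving out each library. The 18 intranasal libraries were left out because row names and values did not match.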

Additional observations from a re-analysis of the deposited data

Results flagged for a closer look

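In AM at 0h, the 1 group with at least 4 libraries, 7 of 41 members had a library far from the others by Dixon's 95% criterion, where chance flags about 1 in 20. The library LPS00h_160623 was lowest for Ifit3, at 0.063 TPM against 0.5 to 0.567 TPM in the others, for Dtx3l, at 5.354 TPM against 7.223 to 7.435 TPM, for Parp9, at 4.322 TPM against 9.121 to 9.877 TPM, and for Parp14, at 3.813 TPM against 5.444 to 5.632 TPM. The library coded A171227 was highest for Isg15, at 4.759 TPM against 0.752 to 1.325 TPM, and for Ifi27l2a, at 44.66 TPM against 21.76 to 22.61 TPM. The library coded C171227 was lowest for Bst2, at 13.79 TPM against 16.4 to 16.84 TPM.

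The response to LPS over 2h, 6h and 20h, on log2(TPM + 1), was compared by limma's F test. It differed in 26 of 41 members between IM and AM, beside 26.5% of all tested genes, and in 29 between iMo and AM, beside 17.3%. Between iMo and IM it differed in 1 member, Oas2, beside 3.75% of all tested genes. The added 1 TPM shrinks AM responses that start under 1 TPM.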

How the results depend on the processing

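Of 168 recomputed counts of called members, 114 stayed within 1.5 times the reported count and 54 did not. No recomputed fold change of a named member changed sign, but the split of calls for iMo at 20h against 0h went from 2 higher and 9 lower to 4 and 2 after rescaling without Rn45s and Lars2. The cause of these changes was not tested. The counts compared here are 0 for iMo and IM at 0h, 1 for AM at 2h against 0h, 9 for AM at 6h against 0h, 0 for AM at 20h against 0h, 22 for IM at 6h against 0h, 5 for IM at 20h against 0h, 35 for iMo at 2h against 0h, 7 for iMo at 6h against 0h, 2 for iMo at 20h against 0h, 16 for IM at 6h against 2h, 29 for iMo at 6h against 2h, 1 for iMo and IM at 2h, 26 for the response of IM and AM, 29 for the response of iMo and AM, 1 for the response of iMo and IM. With a pseudocount of 0.1 TPM the count was 11 for AM at 2h against 0h, 2 for AM at 20h against 0h, 3 for IM at 20h against 0h, 1 for iMo at 20h against 0h, 0 for iMo and IM at 2h, 16 for the response of IM and AM, 0 for the response of iMo and IM. With no filter on low values the count was 4 for iMo at 6h against 0h, 1 for iMo at 20h against 0h, 10 for IM at 6h against 2h, 0 for iMo and IM at 2h, 17 for the response of IM and AM, 0 for the response of iMo and IM. After quantile normalization the count was 2 for iMo and IM at 0h, 3 for AM at 2h against 0h, 1 for AM at 20h against 0h, 37 for IM at 6h against 0h, 14 for IM at 20h against 0h, 18 for iMo at 6h against 0h, 4 for iMo at 20h against 0h, 4 for the response of iMo and IM. After rescaling without Rn45s and Lars2 the count was 12 for AM at 2h against 0h, 18 for AM at 6h against 0h, 4 for AM at 20h against 0h, 35 for IM at 6h against 0h, 15 for IM at 20h against 0h, 17 for iMo at 6h against 0h, 4 for iMo at 20h against 0h, 2 for iMo and IM at 2h, 0 for the response of iMo and IM. With array weights the count was 5 for iMo and IM at 0h, 0 for AM at 2h against 0h, 20 for AM at 6h against 0h, 11 for IM at 20h against 0h, 4 for iMo at 20h against 0h, 8 for IM at 6h against 2h, 0 for iMo and IM at 2h, 16 for the response of IM and AM, 4 for the response of iMo and IM. With the date code as a covariate the count was 3 for iMo and IM at 0h, 0 for AM at 2h against 0h, 1 for AM at 6h against 0h, 7 for IM at 6h against 0h, 0 for IM at 20h against 0h, 17 for iMo at 2h against 0h, 0 for iMo at 6h against 0h, 0 for iMo at 20h against 0h, 26 for IM at 6h against 2h, 2 for iMo and IM at 2h, 4 for the response of iMo and IM. With the date code and letter as a replicate block (consensus correlation 0.197) the count was 4 for iMo and IM at 0h, 3 for AM at 2h against 0h, 26 for IM at 6h against 2h, 2 for the response of iMo and IM. Leaving out 1 library at a time, the counts that moved by more than 1.5 times ran from 0 to 1 for iMo and IM at 0h, from 0 to 2 for AM at 2h against 0h, from 5 to 9 for AM at 6h against 0h, from 7 to 27 for IM at 6h against 0h, from 0 to 5 for IM at 20h against 0h, from 2 to 7 for iMo at 6h against 0h, from 0 to 2 for iMo at 20h against 0h, from 3 to 21 for IM at 6h against 2h, from 11 to 31 for iMo at 6h against 2h, from 0 to 1 for iMo and IM at 2h, from 9 to 30 for the response of IM and AM, from 14 to 33 for the response of iMo and AM, from 0 to 2 for the response of iMo and IM. Of 462 recomputed fold changes of named members 424 kept their call and 38 lost it, 19 of these with the date code as a covariate. For IM and iMo against 0h that covariate rests on the AM libraries at 0h alone, so it cannot separate time from date code there. Leaving out a library kept 1712 of 1782 and lost 70.

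The date codes with their letters were not taken to pair the libraries, since the labels do not say what they mark and not every pair with the same code correlated over 0.1. Over 62 pairs of libraries with the same code the correlation of deviations from group means had a median of 0.084 and ran from -0.21 to 0.618, 28 were over 0.1, and 16 of 25 libraries correlated best with a partner of their own code, which is a hint from the data and not from the design. The block changed no other count by more than 1.5 times. Scaling moved the share of higher calls among all called genes from 16.4% to 48.5% for IM at 2h and from 25.96% to 49.5% for iMo at 2h with quantile normalization, and from 33.3% to 81.0% for iMo at 20h after rescaling without Rn45s and Lars2. TPM values keep no read depth, so no counting error can be given, and levels under 1 TPM in AM are the least certain.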
